A study of Arabidopsis thaliana with 6 samples.

Results

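The auxin gene families of Arabidopsis thaliana were compared between toc1-21 prr5-1 double mutant seedlings and Col-0 wild type seedlings. Members were the loci whose deposited description names an Auxin-responsive protein, an Auxin response factor, an Indole-3-acetic acid-amido synthetase, an Auxin efflux carrier component or a YUCCA monooxygenase, spelled with those capitals. This text found 75 of 33602 loci, which are 29 IAA, 19 ARF, 10 GH3, 5 PIN and 12 YUC loci. It found 0 SAUR loci, because the files describe these genes in other words, so 79 SAUR genes were taken by their RefSeq name and are given apart. A further 12 loci carry the same wording with another capital ("Probable" or "Putative" forms), which are 6 ARF, 3 GH3 and 3 PIN loci, and they too are given apart.

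Both genotypes were profiled as whole seedlings, with 3 libraries of toc1-21 prr5-1 and 3 libraries of Col-0. Plants of both genotypes were raised at 22 °C under a long-day light cycle, on MS plates that held 3% sucrose. They were harvested at an age of 10 days at ZT15, 15 h after dawn. The mutant carries the toc1-21 and prr5-1 alleles, which affect TOC1 and PRR5, clock proteins of the pseudo-response regulator type. The sources used here do not give the accession in which each allele arose or the backcrosses made. The series title names PIF4 and PIF5, light-regulated growth factors of the bHLH class, as genes that these regulators repress.

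Auxin is made from tryptophan by way of indole-3-pyruvate, and YUCCA enzymes carry out the last, rate-limiting step. PIN carriers move auxin out of cells, and GH3 enzymes couple it to amino acids, which lowers the free pool. Auxin brings AUX/IAA repressors to TIR1/AFB F-box receptors for degradation, and this releases ARF transcription factors that act on early genes. The early genes include IAA, GH3 and SAUR genes, so 3 of the families are both parts and outputs of the pathway. Many SAUR proteins block PP2C.D phosphatases and so keep the plasma membrane proton pump active, which loosens the wall in growing hypocotyls. PIF proteins are known activators of several YUC, IAA and SAUR genes in shade and warmth.

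Values are RPKM, read numbers corrected for gene length and for sequencing depth. Sums over several genes are in RPM, recovered reads corrected for depth but not for length. Each gene was tested with limma on log2(RPKM + 1), and p-values were adjusted over all 19710 genes that reached 1 RPKM in at least 3 libraries. A gene is called when its adjusted p is under 0.05. The libraries rest on 19956080 to 26792712 reads in the mutant and 14617043 to 22173648 reads in Col-0. TOC1 had 18.6, 14.8 and 17.2 RPKM in mutant libraries 1 to 3, against 34.0, 32.0 and 34.9 RPKM in Col-0 libraries (log2 fold change -0.96, limma adjusted p = 0.000187), and PRR5 had 1.09, 0.926 and 1.35 RPKM against 2.88, 3.01 and 2.92 RPKM (-0.89, limma adjusted p = 0.00371). PIF4 was 3.01-fold and PIF5 3.86-fold of the Col-0 mean in the mutant. Marker genes of mesophyll, root hair, endodermis, vasculature and dividing cells were all above 1 RPKM in at least 3 libraries, which is what whole seedlings should hold. Embryo and seed markers, not counted in that check, were above 1 RPKM too. Of these CRA1 had 154 to 190 RPKM in mutant libraries and 286 to 418 RPKM in Col-0 libraries. In whole seedlings, fewer cells of a type and less RNA per cell cannot be told apart.

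Promoter windows of 4 genes are shown first. IAA29 is shown because it had the largest increase of the IAA family. The other 3 are SAUR genes picked from those that were higher, on the ground that their windows hold an auxin response element. Of the 11 SAUR genes that were higher, 4 hold this element in their windows. SAUR15 was tested only through its mutant level, and its call was lost on leaving out any library. Each window is the 300 bases before the annotated start in RefSeq TAIR10.1, read 5′ to 3′ on the strand of the gene. Capitals mark TGTCTC, the auxin response element (AuxRE) bound by ARFs, or its reverse complement GAGACA. IAA29 lies at chr4:15583032-15583331 (plus strand), SAUR62 at chr1:10303419-10303718 (minus), AT1G29510 at chr1:10322123-10322422 (plus) and SAUR15 at chr4:18125757-18126056 (plus).
IAA29: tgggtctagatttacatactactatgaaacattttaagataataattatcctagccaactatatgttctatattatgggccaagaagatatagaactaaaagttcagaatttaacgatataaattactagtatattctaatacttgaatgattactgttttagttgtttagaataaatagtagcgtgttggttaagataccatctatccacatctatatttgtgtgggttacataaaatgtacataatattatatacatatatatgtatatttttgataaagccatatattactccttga
SAUR62: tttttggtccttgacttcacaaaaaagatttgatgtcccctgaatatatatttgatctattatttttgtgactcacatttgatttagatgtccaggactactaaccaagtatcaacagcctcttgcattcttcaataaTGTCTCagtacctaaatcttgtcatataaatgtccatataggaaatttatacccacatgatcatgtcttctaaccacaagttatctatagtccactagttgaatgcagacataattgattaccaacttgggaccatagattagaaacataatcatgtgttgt
AT1G29510: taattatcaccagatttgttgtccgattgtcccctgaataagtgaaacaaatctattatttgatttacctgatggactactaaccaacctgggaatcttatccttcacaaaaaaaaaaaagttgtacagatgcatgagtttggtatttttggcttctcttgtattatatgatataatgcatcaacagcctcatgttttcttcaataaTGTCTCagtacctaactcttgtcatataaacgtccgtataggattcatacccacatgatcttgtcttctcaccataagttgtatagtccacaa
SAUR15: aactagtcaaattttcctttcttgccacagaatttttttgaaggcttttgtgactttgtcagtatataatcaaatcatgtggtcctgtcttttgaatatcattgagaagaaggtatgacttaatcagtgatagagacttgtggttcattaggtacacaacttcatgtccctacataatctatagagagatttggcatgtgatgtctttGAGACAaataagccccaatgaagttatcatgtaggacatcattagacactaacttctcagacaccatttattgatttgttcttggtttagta
The IAA29 window holds none of the 4 motifs searched on both strands, which were TGTCTC, the AuxRE variant TGTCGG, the G-box CACGTG bound by PIFs and the evening element AAATATCT bound by clock MYB factors. The SAUR62 window has its AuxRE 162 bases before the start, the AT1G29510 window 93 bases before and the SAUR15 window 92 bases before. The SAUR62 and AT1G29510 windows share an unbroken run of 26 bases around the element: ttcttcaataaTGTCTCagtacctaa.

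Of the 75 members, 67 had a value above 0 in some library and 56 were tested. In the mutant 4 were higher, all of them IAA genes, and 2 were lower, 1 ARF and 1 GH3 locus. These 6 are 10.7% of the tested members, while 10.6% of all tested genes were called, so the members' share is near the background. Over all tested genes 3.9% were called higher and 6.65% lower. Among the 50 tested non-family genes on each side of a called member, 3% (around AT5G13370) to 17% (around IAA2) were called, with 12% around IAA29 and ARF9 and 5% around IAA3 and IAA12. The median log2 fold change was -0.03 over tested members and -0.01 over all tested genes. The 8 members listed at 0 in every library were ARF12, ARF13, ARF22, GH3.4, AT5G13350, AT5G13380, YUC10 and AT1G48912.

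The YUC family, which makes auxin, was low throughout and gave no call, while 10.6% of all tested genes were called. Few YUC loci were tested, so the lack of a call says little. YUC6 had the highest mean of the family at 5.89 RPKM over the 6 libraries, and 6 of the 12 loci were tested. YUC9 had 2.36, 3.74 and 2.89 RPKM in mutant libraries, from 62, 127 and 73 reads, against 1.999, 2.29 and 1.496 RPKM in Col-0 libraries, from 37, 47 and 42 reads. YUC8 had 2.42, 4.01 and 2.63 RPKM in mutant libraries, against 2.25, 2.21 and 1.72 RPKM in Col-0 libraries. In both genes every mutant library lay above every Col-0 library, with mutant library 2 the highest and the other mutant libraries close to the top of the Col-0 range. Such a lack of overlap was common, with 11.6% of all tested genes apart and higher and 15.4% apart and lower.

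YUC8 and YUC9 are known PIF targets, and neither passed the test. The log2 fold change was 0.44 ± 0.18 (SE) for YUC9 (limma adjusted p = 0.169) and 0.38 ± 0.18 (SE) for YUC8 (limma adjusted p = 0.255). YUC3 averaged 2.94 ± 0.561 RPKM in the mutant and 2.65 ± 0.301 RPKM in Col-0, and YUC6 averaged 6.08 ± 0.560 and 5.69 ± 0.542 RPKM (SD, n = 3 each). All 6 tested YUC genes had a log2 fold change above 0, with a median of 0.09. Over all tested genes 9398 of 19710 lay above 0. Of the 6 YUC genes 1 reached an unadjusted p under 0.05, as did 22.4% of all tested genes. In limma-voom on recovered reads 0 YUC genes were called as well. Summed over the 12 loci, the level averaged 33.6 ± 4.49 RPM in the mutant and 29.6 ± 1.54 in Col-0 (SD, n = 3 each), and the genotypes overlapped. YUC1, which stayed below 1 RPKM, had 0.0361, 0.224 and 0.150 RPKM in mutant libraries, against 0.461, 0.231 and 0.541 RPKM in Col-0 libraries, from at most 16 reads. Its adjusted p without the filter on low values was 0.155 in limma.

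All 5 PIN loci of the set were tested and none was called, while 10.6% of all tested genes were. With so few loci the lack of a call says little. PIN3, a carrier that turns auxin flow sideways in bending hypocotyls, had 72.8, 70.3 and 84.2 RPKM in mutant libraries, against 62.3, 52.7 and 66.9 RPKM in Col-0 libraries. The genotypes did not overlap, and the gap between mutant library 2 and Col-0 library 3 was small. Its log2 fold change was 0.32 ± 0.11 (SE, limma adjusted p = 0.104), and it passed once Col-0 library 3 was left out (limma adjusted p = 0.0491).

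PIN4, which feeds auxin toward the root tip, averaged 50.8 ± 2.62 RPKM in the mutant and 59.4 ± 5.82 RPKM in Col-0 (limma adjusted p = 0.203), and its libraries overlapped. PIN7, a close relative of PIN3, averaged 48.7 ± 3.25 RPKM in the mutant and 51.1 ± 3.72 RPKM in Col-0 (SD, n = 3 each, limma adjusted p = 0.744). PIN2 had a log2 fold change of -0.15. The unadjusted p was under 0.05 for PIN3 and PIN4, in opposite directions. The 5 loci together took 507 ± 26.9 RPM in the mutant and 502 ± 38.7 in Col-0 (SD, n = 3 each).

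Among the PIN loci with another capital, PIN5, a carrier of the endoplasmic reticulum, and PIN6 were both lower in every mutant library. PIN5 and PIN8 are RefSeq names here, and the deposited descriptions call these loci components 8 and 5. PIN5 had 2.19, 1.98 and 2.42 RPKM in mutant libraries, against 3.43, 3.10 and 3.72 RPKM in Col-0 libraries. PIN6 had 0.959, 1.29 and 1.07 RPKM in mutant libraries, against 2.02, 1.98 and 2.12 RPKM in Col-0 libraries. Both just missed the threshold, with limma adjusted p-values of 0.0630 for PIN5 (log2 fold change -0.47) and 0.0551 for PIN6 (-0.53), and PIN6 passed without the filter on low values (limma adjusted p = 0.0263), a setting that called 7.61% of 25139 genes. PIN8 stayed below 1 RPKM in every library.

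The IAA family gave 4 calls among 23 tested genes, all higher in the mutant (17.4%, against 10.6% of all tested genes called). IAA29, a repressor known as a PIF and shade target, had 5.95, 5.28 and 5.37 RPKM in mutant libraries, against 2.77, 3.06 and 2.55 RPKM in Col-0 libraries. The lowest mutant library was well above the highest Col-0 library, and the ratio of means was 1.98. Its log2 fold change was 0.79 ± 0.12 (SE, limma adjusted p = 0.00280). IAA29 lies on chromosome 4 at 15583332 to 15584903 (TAIR10.1, plus strand) and has 3 exons.

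IAA2, an early auxin-induced gene, had 61.5, 55.8 and 55.6 RPKM in mutant libraries, against 37.5, 48.0 and 36.5 RPKM in Col-0 libraries. Col-0 library 2 was nearest to the mutant values, and the genotypes did not overlap. The log2 fold change was 0.50 ± 0.11 (SE, limma adjusted p = 0.0173). The call was lost without mutant library 1, mutant library 2 or Col-0 library 1, with a limma adjusted p of at most 0.0859.

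IAA3 (SHY2), which restrains root meristem growth, had 25.9, 28.9 and 26.6 RPKM in mutant libraries, against 20.7, 18.4 and 22.4 RPKM in Col-0 libraries. Its log2 fold change was 0.39 ± 0.10 (SE, limma adjusted p = 0.0311). IAA12 (BDL), the partner of ARF5 in embryonic root formation, had 34.9, 38.5 and 38.3 RPKM in mutant libraries, against 30.4, 30.2 and 29.2 RPKM in Col-0 libraries. Its log2 fold change was 0.30 ± 0.08 (SE, limma adjusted p = 0.0400). Neither gene overlapped between genotypes, and Col-0 was the tighter group for IAA12. Both calls were fragile. IAA3 lost its call on leaving out any 1 library except Col-0 library 3 (limma adjusted p up to 0.136), and IAA12 lost it on leaving out any 1 of the 6 libraries or with a replicate block (limma adjusted p up to 0.160).

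**Figure D1:**
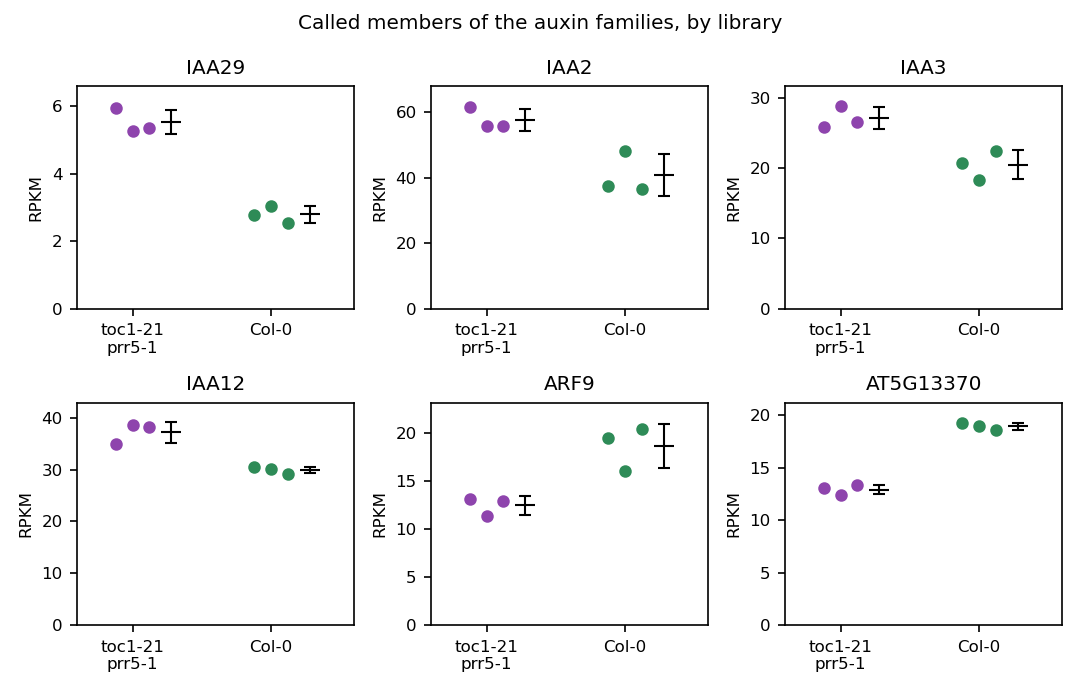
RPKM of the 6 called members in each library, with toc1-21 prr5-1 on the left and Col-0 on the right of each panel. Points are libraries, and the bar beside them is the mean ± SD (n = 3 each), on axes that start at 0. The genotypes do not overlap in any panel, and IAA29 shows the largest ratio, 1.98.

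The other IAA genes mostly stayed close to Col-0. The most abundant were IAA9 (244 ± 10.0 RPKM in the mutant and 213 ± 29.0 in Col-0), IAA16 (168 ± 4.03 and 177 ± 4.34) and IAA8 (159 ± 3.09 and 159 ± 4.90; SD, n = 3 each), and none was called (limma adjusted p = 0.305, 0.645 and 0.981). IAA19, a PIF-regulated gene of hypocotyl growth whose window holds a G-box and 3 AuxREs, had 8.10, 8.93 and 8.06 RPKM in mutant libraries, against 9.17, 8.40 and 6.79 RPKM in Col-0 libraries. Its libraries overlapped fully (log2 fold change 0.05 ± 0.12, SE, limma adjusted p = 0.891). Without Col-0 library 3, IAA28 was called lower (limma adjusted p = 0.0154), a library that had 39.2 RPKM while the other Col-0 libraries had 66.3 and 69.7 RPKM and the mutant libraries 49.2 to 53.8 RPKM.

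Of the 23 tested IAA genes, 15 had a log2 fold change above 0 and 8 below, with a median of 0.10 (16 and 7 in limma-voom on recovered reads). Over all 19710 tested genes 9398 lay above 0 and 10312 below. IAA20 passed the low-value filter only through the mutant, with 1.104, 1.197 and 1.071 RPKM there, against 0.418, 0.754 and 0.826 RPKM in Col-0 libraries, and it was not called (limma adjusted p = 0.278). IAA20 is among the 15 above 0 and counts in the median, and the filter favoured that sign. The split and the median without IAA20 are not given. The members with a divergent or absent degron, IAA20 and IAA30 to IAA34, had low levels, with a highest mean of 2.02 RPKM. In sum the family took 1679 ± 31.3 RPM in the mutant and 1597 ± 90.7 in Col-0 (SD, n = 3 each), and Col-0 library 2 fell inside the mutant range.

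The ARF family leaned the other way. The summed vasculature markers were lower in the mutant as well (216 ± 12.6 RPM in the mutant and 243 ± 18.9 RPM in Col-0, SD, n = 3 each). The mean sums of endodermis, dividing-cell and embryo and seed markers were also lower, at 0.893, 0.913 and 0.476 of Col-0. Those of mesophyll and root hair markers were higher, at 1.098 and 1.358 of Col-0. The sums of endodermis, dividing-cell, mesophyll and root hair markers overlapped between genotypes. For root hair markers Col-0 library 3 had 24.8 RPM, while Col-0 libraries 1 and 2 had 70.9 and 78.0 RPM. The part of these differences in the ARF values was not tested. Of 15 tested ARF genes 13 had a log2 fold change below 0, with a median of -0.14. Over all tested genes 10312 of 19710 lay below 0. The ARF split was the same under every scaling and pseudocount tried. Such settings change few signs, so this is a weak check on the split, and the split without single libraries is not given. ARF9, a class B factor, the class counted as repressors, had 13.1, 11.3 and 12.9 RPKM in mutant libraries, against 19.4, 16.0 and 20.4 RPKM in Col-0 libraries. It was the only ARF called (log2 fold change -0.54 ± 0.11, SE, limma adjusted p = 0.0133), and it lost the call without mutant library 2 or Col-0 library 1 (limma adjusted p up to 0.0670). This makes 6.67% of tested ARF genes called, against 10.6% of all tested genes.

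ARF5, ARF3, ARF4 and ARF11 were also lower in every mutant library than in any Col-0 library without passing the test. ARF5 (MONOPTEROS), an activator of vascular and root patterning, had 7.60, 8.56 and 9.50 RPKM in mutant libraries, against 12.5, 10.13 and 12.8 RPKM in Col-0 libraries (log2 fold change -0.42, limma adjusted p = 0.0617). ARF3 (ETTIN), an organ polarity factor, averaged 13.7 ± 0.790 RPKM in the mutant and 17.3 ± 1.18 RPKM in Col-0 (limma adjusted p = 0.0721). ARF4, its partner in organ polarity, averaged 17.9 ± 1.61 and 23.9 ± 3.61 RPKM (limma adjusted p = 0.0757). ARF11 averaged 6.49 ± 0.173 RPKM in the mutant and 9.48 ± 2.54 RPKM in Col-0 (SD, n = 3 each, limma adjusted p = 0.138).

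Of the 15 tested ARF genes, these 5 did not overlap and were lower, and 0 did not overlap and were higher. Over all tested genes 15.4% did not overlap and were lower and 11.6% did not overlap and were higher. Limma-voom on recovered reads called 4 ARF genes, adding ARF5, ARF3 and ARF4, and leaving out Col-0 library 2 also gave 4, adding ARF5, ARF4 and ARF11. Col-0 library 2 had the lowest value of the Col-0 group for ARF9, ARF5, ARF3, ARF4 and ARF11. Summed over the family, Col-0 library 2 had 982 RPM, inside the mutant range of 960 to 1003, while Col-0 libraries 1 and 3 had 1185 and 1152.

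The activators with glutamine-rich middle regions (ARF5, ARF6, ARF7, ARF8 and ARF19) had log2 fold changes on both sides of 0, and the other 10 tested ARF genes were all below 0, from -0.54 to -0.03; this grouping was made after the values were seen. ARF19 had 5.29, 4.56 and 5.65 RPKM in mutant libraries, against 3.93, 3.76 and 4.76 RPKM in Col-0 libraries, so the genotypes overlapped (log2 fold change 0.26). ARF2, the most abundant ARF and a repressor of organ growth, averaged 115 ± 4.62 RPKM in the mutant and 128 ± 15.1 RPKM in Col-0 (limma adjusted p = 0.473). ARF1 averaged 37.7 ± 3.05 and 38.5 ± 3.87 RPKM, and ARF6 24.5 ± 1.53 and 26.4 ± 1.46 RPKM (SD, n = 3 each). ARF20 was below the filter, with 3, 11 and 13 reads in mutant libraries, against 25, 23 and 51 reads in Col-0 libraries. It was lower when no filter was applied (limma adjusted p = 0.0153), and ARF12, ARF13 and ARF22, of the same chromosome 1 group, were listed at 0.

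**Figure D2:**
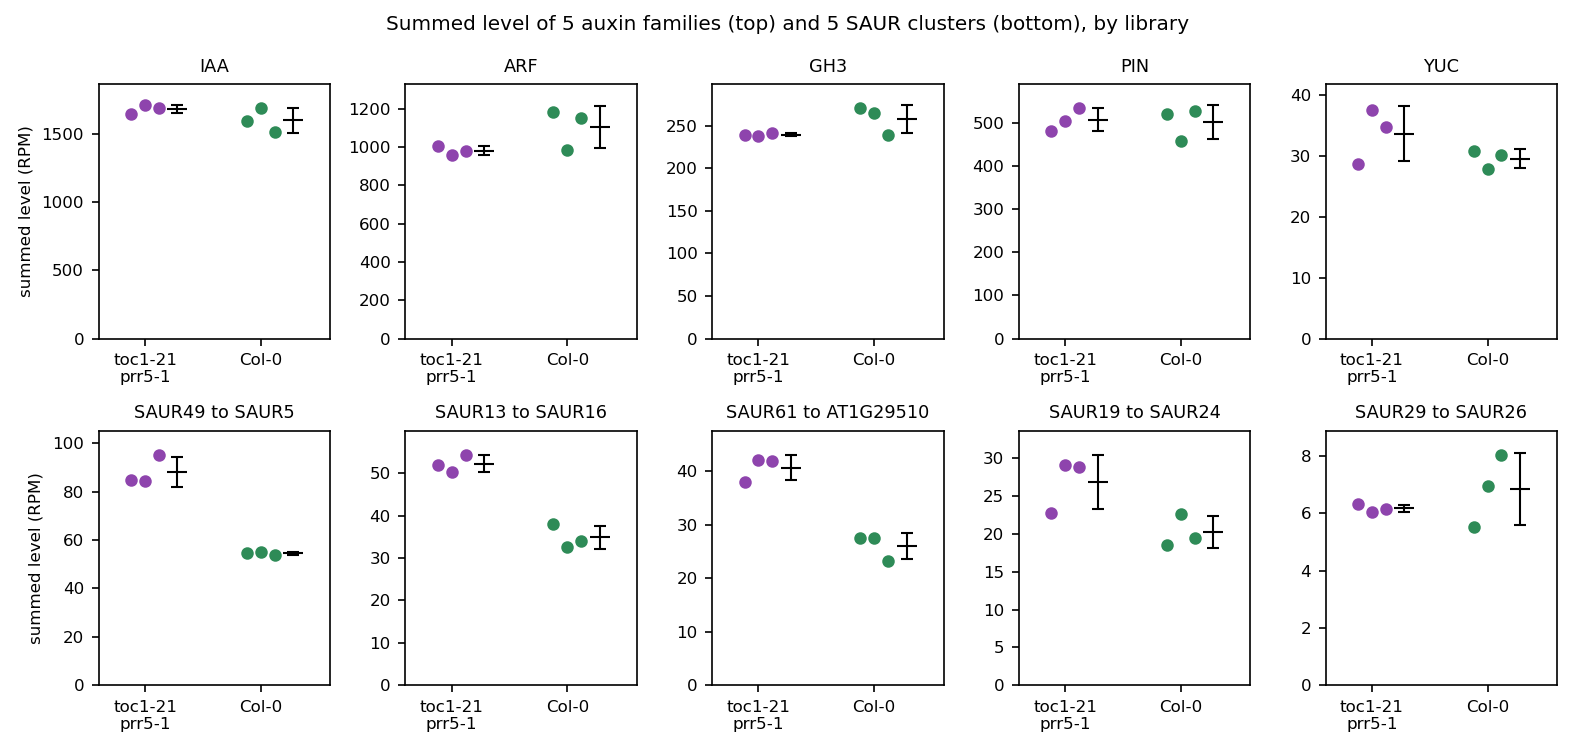
Summed level in RPM of the 5 families (top) and of 5 SAUR clusters (bottom) in each library, toc1-21 prr5-1 left and Col-0 right, with the mean ± SD (n = 3 each) beside the points. Axes start at 0 and differ between panels. Each family overlaps between genotypes, while the first 4 SAUR clusters lie higher in every mutant library. The clusters were drawn with these values known.

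The GH3 family had 7 tested members and 1 call (14.3%, against 10.6% of all tested genes), which is near the background for so few genes. AT5G13370, a locus whose description is shared with GH3.17, had 13.0, 12.4 and 13.3 RPKM in mutant libraries, against 19.3, 18.9 and 18.6 RPKM in Col-0 libraries. Both groups were tight and far apart (log2 fold change -0.52 ± 0.09, SE, limma adjusted p = 0.00363), and the call held in all 13 alternatives. Its tandem neighbour AT5G13360 had 9.04, 7.73 and 9.37 RPKM in mutant libraries, against 11.9, 9.68 and 8.88 RPKM in Col-0 libraries, which overlapped (limma adjusted p = 0.448). Of the loci on either side of the pair, AT5G13350 and AT5G13380 were listed at 0.

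The auxin-induced GH3 genes did not pass. GH3.3 averaged 2.98 ± 0.606 RPKM in the mutant and 3.31 ± 0.247 RPKM in Col-0 (limma adjusted p = 0.724), and GH3.5 averaged 17.0 ± 0.378 and 18.5 ± 1.07 RPKM (SD, n = 3 each, limma adjusted p = 0.539). GH3.6 and GH3.17, the most abundant members, averaged 36.1 ± 2.05 and 27.5 ± 1.88 RPKM in the mutant and 34.6 ± 1.25 and 28.5 ± 4.72 RPKM in Col-0 (SD, n = 3 each).

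Among the GH3 loci with another capital, DFL2 (AT4G03400), named for a dwarf-in-light phenotype, was higher in the mutant. It had 8.61, 8.61 and 8.23 RPKM in mutant libraries, against 4.44, 4.36 and 5.10 RPKM in Col-0 libraries, with no overlap (log2 fold change 0.75 ± 0.11, SE, limma adjusted p = 0.00176). GH3.9 had 1.23, 0.866 and 0.651 RPKM in mutant libraries, against 0.190, 0.258 and 0.398 RPKM in Col-0 libraries, from 55, 50 and 28 reads against 6, 9 and 19. It was below the filter and had a limma adjusted p of 0.0383 without one.

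The SAUR genes gave the most calls. Of 79 SAUR genes 56 were tested, 11 were higher and 3 were lower in the mutant (25%, against 10.6% of all tested genes), and the median log2 fold change was 0.23. SAUR15 entered the test only through its mutant libraries, and without it 10 of 55 were higher and 3 lower (23.6%). These genes were taken by name after the text rule was seen to find none. All 11 that were higher lie in 4 tandem clusters on chromosomes 1, 4 and 5, and of the 30 tested SAUR genes outside the 5 clusters examined 0 were higher and 3 were lower (27 of the 56 had an unadjusted p under 0.05, against 22.4% of all tested genes). The clusters were drawn from chromosome position with these values known.

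The largest change was in the chromosome 4 cluster from SAUR49 to SAUR5. SAUR1 had 8.64, 10.2 and 9.74 RPKM in mutant libraries, against 2.06, 3.25 and 2.11 RPKM in Col-0 libraries, a ratio of 3.85. The recovered reads were 119, 181 and 129 in mutant libraries and 20, 35 and 31 in Col-0 libraries. No Col-0 library came near the mutant values (log2 fold change 1.61 ± 0.15, SE, limma adjusted p = 0.000108).

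SAUR50, the most abundant SAUR gene and one known from cotyledon opening in light, had 92.0, 89.2 and 104 RPKM in mutant libraries, against 53.0, 51.1 and 55.0 RPKM in Col-0 libraries (log2 fold change 0.83, limma adjusted p = 0.000178). SAUR3 had 6.55, 5.99 and 6.51 RPKM in mutant libraries, against 3.296, 3.69 and 3.03 RPKM in Col-0 libraries (0.76, limma adjusted p = 0.00280). The other 3 tested genes of the same cluster were not called, and their log2 fold changes were below 0. SAUR49 averaged 6.77 ± 0.646 RPKM in the mutant and 8.42 ± 1.10 RPKM in Col-0, SAUR4 11.4 ± 2.14 and 12.6 ± 1.19 RPKM, and SAUR5 2.29 ± 2.11 and 3.86 ± 1.42 RPKM (SD, n = 3 each). Without mutant library 3, which had 4.73 RPKM, SAUR5 was lower (limma adjusted p = 0.0205). The 3 called genes follow each other among the tested genes of the cluster, with the uncalled genes on either side. The share called among tested non-family neighbours (50 on each side) was 17%.

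In the chromosome 4 cluster from SAUR13 to SAUR16, 3 of 4 tested genes were called, or 2 of 3 without SAUR15, which was tested only through its mutant level. SAUR14 had 47.6, 44.2 and 51.7 RPKM in mutant libraries, against 35.7, 32.8 and 32.7 RPKM in Col-0 libraries (log2 fold change 0.49, limma adjusted p = 0.00573). SAUR16, known with SAUR50 from cotyledons in light, had 28.3, 28.8 and 27.1 RPKM in mutant libraries, against 19.9, 16.0 and 18.0 RPKM in Col-0 libraries (0.62, limma adjusted p = 0.00276). Neither gene overlapped between genotypes.

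SAUR15, also called SAUR-AC1, had 1.80, 1.61 and 1.87 RPKM in mutant libraries, against 0.805, 0.968 and 0.796 RPKM in Col-0 libraries, from 19 to 22 and 6 to 9 reads. The log2 fold change was 0.57 (limma adjusted p = 0.0444). The call was lost on leaving out any 1 library, with the block, with a pseudocount of 5 and in limma-voom (limma adjusted p 0.0507 to 0.195). It fell outside the rule for named genes; it is named because its window is shown. SAUR13 had 1.99, 2.08 and 3.93 RPKM in mutant libraries, against 1.97, 0.636 and 0.744 RPKM in Col-0 libraries (limma adjusted p = 0.101). Only 2% of the non-family neighbours of this cluster were called.

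The chromosome 1 cluster from SAUR61 to AT1G29510 had 4 calls among 7 tested genes, with 6% of its non-family neighbours called. AT1G29510, a gene that shares the name SAUR68 with a neighbour, had 14.6, 14.2 and 14.2 RPKM in mutant libraries, against 7.996, 7.22 and 8.86 RPKM in Col-0 libraries (log2 fold change 0.77, limma adjusted p = 0.000988). SAUR63, which promotes hypocotyl and stamen elongation, had 9.77, 11.3 and 8.32 RPKM in mutant libraries, against 6.25, 3.69 and 4.42 RPKM in Col-0 libraries (0.92, limma adjusted p = 0.00755). SAUR62 had 8.36, 9.41 and 8.40 RPKM in mutant libraries, against 6.08, 4.05 and 3.09 RPKM in Col-0 libraries (0.88, limma adjusted p = 0.0127). SAUR65 had 7.19, 8.14 and 11.2 RPKM in mutant libraries, against 5.05, 5.72 and 4.46 RPKM in Col-0 libraries (0.68, limma adjusted p = 0.0229).

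None of these 4 overlapped between genotypes. SAUR62 lost its call without mutant library 2 (limma adjusted p = 0.0605). SAUR65 lost its call without mutant library 2 or 3 or Col-0 library 1 or 3, without the filter and in limma-voom (limma adjusted p up to 0.0735). SAUR61, SAUR64 and SAUR66 were not called.

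The chromosome 5 cluster of SAUR19 to SAUR24, genes that drive hypocotyl cell expansion and are known PIF targets, had 1 call among 6. SAUR20 had 9.94, 8.29 and 9.92 RPKM in mutant libraries, against 7.19, 6.24 and 6.74 RPKM in Col-0 libraries (log2 fold change 0.43, limma adjusted p = 0.0431). This call was lost on leaving out any 1 library, with the block, without the filter and in limma-voom (limma adjusted p up to 0.217). SAUR21 averaged 16.1 ± 1.66 RPKM in the mutant and 12.3 ± 1.28 RPKM in Col-0 (limma adjusted p = 0.0715), and SAUR24 averaged 14.1 ± 1.37 and 10.54 ± 1.73 RPKM (SD, n = 3 each, limma adjusted p = 0.0881). Both were higher in every mutant library than in any Col-0 library.

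SAUR22 and SAUR23 had log2 fold changes of 0.43 and 0.53 and overlapped (limma adjusted p = 0.406 and 0.248), and SAUR19 had -0.13 (limma adjusted p = 0.838). The 6 coding sequences are 87.7% to 95.2% identical, and how reads that match several of them were assigned is not stated, so the split between them is uncertain. Their non-family neighbours were called at 5%. In the chromosome 1 cluster identity runs from 49.2% to 89.8%, the highest being between SAUR63 and AT1G29510. SAUR62 is 89.0% identical to SAUR63 and 97.0% identical to SAUR75 on chromosome 5. The values of SAUR62, SAUR63 and AT1G29510 are therefore uncertain too.

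**Figure D3:**
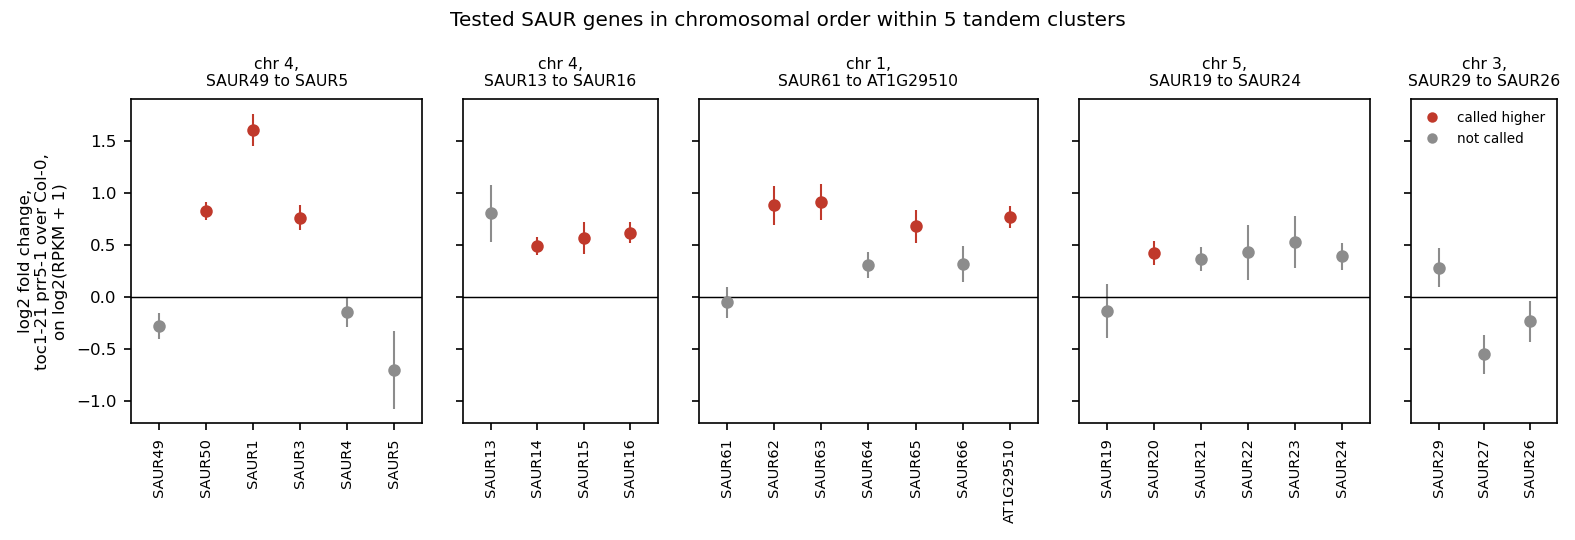
Log2 fold change of the tested SAUR genes, toc1-21 prr5-1 over Col-0 on log2(RPKM + 1), in chromosomal order within 5 tandem clusters. Points are limma estimates, bars ± 1 SE (3 libraries each), and red marks genes called higher. SAUR1 stands at 1.61, and all 4 genes of the SAUR13 to SAUR16 cluster lie above 0.

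Summed over each cluster, the genotypes did not overlap in 4 of the 5 clusters. The clusters were drawn with these values known, and these 4 hold every SAUR gene called higher, so this was partly fixed by the choice. The SAUR49 to SAUR5 cluster took 84.8, 84.3 and 95.3 RPM in mutant libraries, against 54.8, 55.1 and 53.8 in Col-0 libraries, a ratio of 1.62. SAUR50 was the most abundant gene of this cluster, in which 3 of 6 tested genes had log2 fold changes below 0. SAUR13 to SAUR16 took 52.0, 50.4 and 54.4 in mutant libraries, against 38.0, 32.5 and 34.1 in Col-0 libraries, a ratio of 1.499. SAUR61 to AT1G29510 took 38.0, 42.2 and 41.9 in mutant libraries, against 27.4, 27.5 and 23.1 in Col-0 libraries, a ratio of 1.56.

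These 3 clusters were higher in every mutant library with a wide gap. SAUR19 to SAUR24 took 22.8, 29.2 and 28.8 RPM in mutant libraries, against 18.6, 22.7 and 19.5 in Col-0 libraries, so mutant library 1 and Col-0 library 2 were nearly level. The chromosome 3 cluster from SAUR29 to SAUR26 took 6.18 ± 0.136 in the mutant and 6.85 ± 1.25 in Col-0 (SD, n = 3 each), overlapped between genotypes and had no call. No test was run on these sums.

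The 3 SAUR genes that were lower lie outside the clusters. SAUR74 had 0.225, 1.04 and 1.32 RPKM in mutant libraries, against 3.29, 3.74 and 2.66 RPKM in Col-0 libraries, from 3, 18 and 17 reads against 31, 39 and 38 (log2 fold change -1.23, limma adjusted p = 0.00911). SAUR37 had 5.08, 2.55 and 2.81 RPKM in mutant libraries, against 6.48, 8.01 and 5.85 RPKM in Col-0 libraries (-0.83, limma adjusted p = 0.0297). SAUR31 had 30.4, 33.7 and 32.2 RPKM in mutant libraries, against 43.2, 37.6 and 41.0 RPKM in Col-0 libraries (-0.33, limma adjusted p = 0.0385). None of the 3 overlapped between genotypes.

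SAUR74 held its call in the 12 alternatives in which it was tested, and the filter at 5 RPKM left it out. SAUR37 lost its call without mutant library 2 or 3, without Col-0 library 1 or 2 and without the filter (limma adjusted p up to 0.118). SAUR31 lost it with the block or on leaving out any 1 library except Col-0 library 2 (limma adjusted p up to 0.166). The abundant SAUR78 and SAUR32 were not called (limma adjusted p = 0.212 and 0.889).

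The promoter windows were read for all members against 26711 protein-coding loci of the files. The AuxRE TGTCTC was in the windows of 4 of the 11 SAUR genes that were higher (36.4%), in 0 of the 3 that were lower and in 3 of the 65 other SAUR genes (4.62%), while 12.9% of all windows hold it. The 65 other SAUR genes include 23 that were not tested. The 3 others that hold the element, SAUR7, SAUR22 and SAUR66, were tested. Among the 42 SAUR genes tested without a call, the element was thus in 3. Without SAUR15, which was tested only through its mutant level, it was in 3 of 10 higher genes (30%). The 4 higher genes with it are SAUR62, AT1G29510, SAUR15 and SAUR20, whose window holds it at 283 and at 25 bases before the start. SAUR62 and AT1G29510, of the same tandem cluster, are not independent cases, since their windows share an unbroken run of 26 bases around the element. Among the called members only IAA3 holds it, against 17 of 69 other members (24.6%). The variant TGTCGG is in the IAA12 window, 38 bases before the start, and in that of SAUR63, 83 bases before, and in 4.89% of all windows. The G-box CACGTG is in 0 windows of called members and called SAUR genes, in 5 of 69 other members and in 7.18% of all windows, and the evening element AAATATCT in 0 of the called, 2 of 69 other members and 5.71% of all. A match is only a run of letters in the window, and no test was run on these shares.

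Auxin pathway genes outside the families were read from a list of 75 genes, of which 65 were tested, 2 were higher and 2 were lower (6.15%, against 10.6% of all tested genes). AFB1, an F-box auxin receptor, had 30.4, 31.6 and 33.7 RPKM in mutant libraries, against 26.5, 25.1 and 22.1 RPKM in Col-0 libraries (log2 fold change 0.37, limma adjusted p = 0.0343). EXPA8, a wall-loosening expansin used as a growth readout, had 79.4, 83.9 and 93.9 RPKM in mutant libraries, against 51.1, 48.0 and 60.8 RPKM in Col-0 libraries (0.68, limma adjusted p = 0.00253). Neither overlapped between genotypes, and EXPA8 held its call in all 13 alternatives.

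PILS5, an auxin carrier of the endoplasmic reticulum, had 33.8, 42.1 and 41.7 RPKM in mutant libraries, against 60.1, 69.3 and 46.6 RPKM in Col-0 libraries (log2 fold change -0.56, limma adjusted p = 0.0344). NIT3, a nitrilase of an alternative auxin route, had 16.0, 19.6 and 18.2 RPKM in mutant libraries, against 29.0, 25.7 and 21.0 RPKM in Col-0 libraries (-0.47, limma adjusted p = 0.0450). Both were lower in every mutant library, Col-0 library 3 being the nearest, and 37% of the non-family neighbours of NIT3 were called. Each of AFB1, PILS5 and NIT3 lost its call in 6 or 7 of 13 alternatives. Per group, the precursor routes had 0 higher and 1 lower of 16 tested, the influx and other carriers 0 and 1 of 19, the receptors and SCF subunits 1 and 0 of 13, the corepressors 0 and 0 of 2, inactivation and release 0 and 0 of 8, and other response genes 1 and 0 of 7.

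Tissue marker sums are given beside these results, and those of mesophyll, root hair, endodermis and dividing cells overlapped between genotypes. The 4 mesophyll markers summed to 16790 to 18734 RPM in mutant libraries, against 15718 to 17266 in Col-0 libraries, with CAB3 and RCA higher and RBCS2B lower. Root hair markers summed to 64.4 to 99.99 in mutant libraries, against 24.8 to 78.0 in Col-0 libraries, with 0 of 4 called, and Col-0 library 3 was the lowest of all. The 4 vasculature markers had 0 called, but all 4 log2 fold changes were below 0 (median -0.20), and IRX3, a cellulose synthase of xylem walls, was lower in every mutant library (limma adjusted p = 0.0761). They summed to 203 to 228.05 in mutant libraries, against 228.35 to 264 in Col-0 libraries, with almost no gap between the genotypes. Endodermis markers summed to 66.0 to 77.3 in mutant libraries, against 55.9 to 92.8 in Col-0 libraries, and dividing-cell markers to 89.2 to 102.9 against 98.0 to 110, with 0 of 4 called each. The 3 embryo and seed markers summed to 295 to 363 in mutant libraries, against 559 to 772 in Col-0 libraries, with CRA1 and OLEO1 lower. The part of these differences in the auxin gene results was not tested.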

How the data were processed

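Per the file headers the authors deposited RPKM values for 33602 loci, 1 file per library, and per the labels' protocols RNA was made into libraries with a directional kit. TopHat2, TopHat, edgeR and the TAIR10 build are named in the submitters' processing notes without versions or roles. The sources used here do not give the counter, its strand setting or its handling of multi-mapping reads. Antisense and overlapping genes therefore cannot be told apart. The design text calls the libraries biological replicates without saying how they were grown apart, and each p-value reflects only the spread among them.

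Limma 3.58.1 (R 4.3.3) with a mean-variance trend was run on log2(RPKM + 1), with genotype only, on genes that reached 1 RPKM in 3 or more libraries, with Benjamini-Hochberg adjustment and a threshold of 0.05. Log2 fold changes on this scale understate changes of low genes, and ratios are of mean RPKM. RPKM values are whole multiples of 1 read, so whole reads were recovered for 25139 of 25139 loci above 0 (tolerance 1e-06), summing to 99.54% to 99.58% of each depth. Where the gene length was not an annotated one (all but 4901 loci), the smallest fitting length was taken, so such reads can be too few. A gene such as CAB3 can therefore weigh too little in a sum in RPM. Within a genotype, libraries differed beyond sampling noise (chi-square per degree of freedom 5.97 to 21.52). The fit was also run on simulated data, in which all genes had the same spread beyond sampling noise. Changes were put only into genes above a low level, so that run does not cover low genes such as YUC8 or SAUR15. Its outcome is not given.

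Alternatives were pseudocounts of 0.1 and 5, no filter, a filter at 5 RPKM, median-of-ratios scaling, limma-voom on recovered reads, leaving out each library, a replicate block and, chosen after seeing the data, the description matched in any case. Named genes are called members (at most 12 a family), the most abundant 3, the 2 with the smallest p where under 2 were called, known PIF targets and called pathway genes; PIN5, PIN6, DFL2, GH3.9, IAA28, ARF3, ARF4, ARF11, SAUR5, SAUR13 and SAUR49 were chosen after their values were seen. Members and lists were chosen with earlier results of these data known. Of the pathway list 12 symbols had no match and 1 was a member, and CRC, whose symbol names another gene, was left out of the markers. Loci matched RefSeq TAIR10.1 at 97.7%, members at 100%; positions and sequences are from that build, none from the files. Protein motifs were not analysed here. Some items are not reported here.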

Additional observations from a re-analysis of the deposited data

How the results depend on the processing

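Leaving out 1 library at a time gave 1340 to 2250 called genes over all 19710 tested (2080 with all libraries), 2 to 7 called members (6 with all), 1 to 4 IAA genes, 0 to 4 ARF genes, 1 to 1 GH3 genes, 0 to 1 PIN genes, 0 to 0 YUC genes and 9 to 14 SAUR genes. The lowest counts of members, 2, came without mutant library 2 or Col-0 library 1, and the SAUR count of 9 came without mutant library 2. The ARF count was 2 without the low-value filter and 4 with limma-voom on recovered reads, and matching the description in any case gave 2 GH3 calls. Pseudocounts of 0.1 and 5 and a filter at 5 RPKM moved no count of a family by more than 1.5 times, and no named gene that was called changed sign in any alternative. IAA29, AT5G13370, SAUR1, SAUR50, AT1G29510, SAUR16, SAUR3, SAUR14, SAUR63 and EXPA8 kept their calls in all 13 alternatives, and SAUR74 in the 12 that tested it. No alternative changed how reads that match several genes were assigned. The median over all tested genes was -0.01 as deposited and 0.01 after median-of-ratios scaling (log2).

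Same-numbered libraries of the genotypes had deviations correlated at -0.03, 0.15 and 0.04, so the numbers are not shown to pair the samples, and a replicate block is given only as an alternative. With the block 2114 genes were called; IAA12, SAUR31, SAUR20, SAUR15 and AFB1 were no longer called and SAUR23 was (adjusted p = 0.0266). At these depths a value near 1 RPKM rests on few reads, 4 to 21 for IAA20, so IAA20, SAUR15 and SAUR74 are imprecise.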
